A study of Homo sapiens with 9 samples.

Results

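The nucleolus makes ribosomes, and the genes described here encode 60 of the proteins that do the work: factors for RNA polymerase I, which transcribes the precursor of the ribosomal RNA (rRNA), proteins of the small nucleolar RNA particles that modify it, and the assembly factors that cut and fold it into the small and the large subunit. They were listed by name for their role, with no rule on measured values, although earlier results of these data were known by then. In the deposited counts, all 60 were found among the 19918 genes listed. All 60 also passed the filter on low counts and are among the 12810 genes tested.

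The counts come from RNA sequencing of VCaP, an established human prostate cancer cell line. Cells had been transfected with 100 pmol of siRNA and collected after 72 h, and stranded libraries were prepared from 1.3 µg of total RNA each. The si025 and si033 groups each received an siRNA against exon 1 of the long non-coding RNA *IGF1R-AS1*, and the control group, labelled WT, received a control siRNA, with 3 libraries in each group. The question put to these groups was what the cells express once *IGF1R-AS1* is knocked down, and how far the targeted RNA itself fell is not analysed here. The study names 3 biological replicates for these knockdown experiments, but the labels do not say that the libraries of a group came from separate cultures. Thus *p* values measure the spread between these libraries, which may be technical as far as the labels tell.

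As background, ribosome production starts when RNA polymerase I, recruited by the upstream binding factor UBTF, copies the rRNA genes inside the nucleolus. Small nucleolar ribonucleoprotein particles then methylate or pseudouridylate the transcript, and a large processome built around the U3 particle separates the small subunit from the large one. Growing cells spend much of their transcription on this pathway, its genes are known as targets of the transcription factor MYC, and enlarged nucleoli are a classic mark of prostate cancer cells.

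Levels are given as CPM, counts relative to the library size, scaled by the trimmed mean of M values (TMM), and changes as log2 fold changes with their standard error (SE). A gene is referred to as called where its Benjamini-Hochberg adjusted *p* value, over all 12810 genes in the quasi-likelihood test of edgeR, was under 0.05. Library totals lay between 11649811 and 28492259 counts. In bulk RNA, fewer cells that express a gene and less RNA of it per cell cannot be told apart. Of 9 markers of prostate luminal cells, all were expressed, with summed levels of 8051 to 8264 CPM in control, 9973 to 10320 CPM with si025 and 7087 to 7368 CPM with si033. The 5 fibroblast markers summed to 16.4 to 18.9, 36.4 to 43.9 and 8.90 to 11.2 CPM, almost all from *LUM* and *COL1A1*, with *COL1A2* at 0.077 CPM at most. The 4 endothelial markers summed to 2.34 CPM at most and the 4 leukocyte markers to 3.04 CPM at most, with *CDH5* and *CD3E* at 0 in all 9 libraries. What part other cells had in the results below was not tested.

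Promoter sequences were read first, to see what the genes share at their start. RefSeq promoters, each covering 250 bases before and 50 bases after the start in GRCh38.p14, were found for 51 of the 60 members. The word CACGTG, which reads the same on both strands and is the canonical E-box bound by MYC and related factors, was present in 20 of them, or 39.2%. Of the other ribosome biogenesis genes described further on, 24.2% of 91 promoters held it, against 9.98% of the 9948 promoters of tested genes and 7.43% of all 27305 promoters. Within 100 bases around the start the shares were 35.3%, 16.5%, 3.98% and 2.87%. The looser word CANNTG, which includes CACGTG, was in 76.5% of the members' promoters and 69.2% of those of the other biogenesis genes. Of the promoters of tested genes 59.9% held it, and of all promoters 68.9%. CCGGAAG or its reverse complement, a word of ETS-type factors, was in 37.3% of members' promoters, 46.2% of those of the other biogenesis genes, 18.9% of those of tested genes and 10.7% of all. Within 100 bases around the start these shares were 15.7%, 34.1%, 11.2% and 6.01%, so the members lay closer to the tested genes there. A match is a description of the sequence and not of binding.

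The 5 promoters below are shown for how the word sits in them, and were picked after the values of the genes had been seen. They are written 5′ to 3′ on the strand of the gene, with CACGTG in capitals. *FBL*, *NAT10* and *WDR43* were lower with both siRNAs and carry 1 copy next to the start, whereas *NOP10* and *IMP4* carry 2 copies, the only members with more than 1, and were not called against control with either siRNA, although *NOP10* was called higher under other scalings given below. Not all members with 1 copy near the start were called lower with both siRNAs: *PWP2*, *LTV1*, *UTP4*, *NOL6*, *NOC3L* and *PES1* were not. The windows lie at chr19:39846330-39846629 (minus strand) for *FBL*, chr11:34105379-34105678 (plus strand) for *NAT10*, chr2:28894417-28894716 (plus strand) for *WDR43*, chr15:34343087-34343386 (minus strand) for *NOP10* and chr2:130342647-130342946 (plus strand) for *IMP4*.
FBL: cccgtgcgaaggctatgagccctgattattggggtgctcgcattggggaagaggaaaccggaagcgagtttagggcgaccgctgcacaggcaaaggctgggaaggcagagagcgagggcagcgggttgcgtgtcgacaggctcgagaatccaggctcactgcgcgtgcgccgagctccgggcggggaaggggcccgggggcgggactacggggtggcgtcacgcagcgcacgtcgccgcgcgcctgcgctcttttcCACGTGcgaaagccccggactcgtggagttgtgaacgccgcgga
NAT10: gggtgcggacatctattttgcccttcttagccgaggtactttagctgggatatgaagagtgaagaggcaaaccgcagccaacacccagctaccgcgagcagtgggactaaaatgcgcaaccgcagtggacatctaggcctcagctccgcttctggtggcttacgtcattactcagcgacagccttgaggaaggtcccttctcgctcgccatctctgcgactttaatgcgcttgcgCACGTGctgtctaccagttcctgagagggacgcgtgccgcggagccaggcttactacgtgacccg
WDR43: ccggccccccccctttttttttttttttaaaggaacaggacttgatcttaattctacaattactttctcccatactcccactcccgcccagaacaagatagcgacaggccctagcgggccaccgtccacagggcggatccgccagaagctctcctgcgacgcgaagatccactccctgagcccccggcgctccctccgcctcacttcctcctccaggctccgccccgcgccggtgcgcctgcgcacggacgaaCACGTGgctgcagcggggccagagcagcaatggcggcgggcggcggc
NOP10: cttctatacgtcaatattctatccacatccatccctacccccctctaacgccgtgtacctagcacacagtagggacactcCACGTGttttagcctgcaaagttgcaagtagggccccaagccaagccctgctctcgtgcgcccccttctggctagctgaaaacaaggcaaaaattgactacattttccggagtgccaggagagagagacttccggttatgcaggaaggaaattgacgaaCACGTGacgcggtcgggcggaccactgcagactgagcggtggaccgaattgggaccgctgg
IMP4: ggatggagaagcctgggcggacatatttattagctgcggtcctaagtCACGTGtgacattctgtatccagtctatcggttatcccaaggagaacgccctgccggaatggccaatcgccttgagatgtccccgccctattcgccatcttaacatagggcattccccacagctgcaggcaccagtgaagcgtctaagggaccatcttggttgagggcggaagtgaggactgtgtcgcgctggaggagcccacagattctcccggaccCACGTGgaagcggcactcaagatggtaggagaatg

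Among the members, those with the word did not have the lower median. The median log2 fold change of the 20 members with CACGTG was -0.27 with si025 and -0.21 with si033, and that of the 31 without it -0.35 and -0.24. Over all tested genes with a promoter in the table, the 993 with the word had medians of -0.056 and -0.033 and the 8955 without it 0.021 and 0.0046.

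Most of the ribosome biogenesis genes were lower after either siRNA, by modest amounts. With si025, 50 of 60 members were called lower and 1 higher, where 28.8% of all tested genes were called lower and 32.9% higher. With si033, 44 members were called lower and 3 higher, against 27.8% lower and 26.9% higher among all tested genes. In 42 members the call was lower with both siRNAs, which held for 14.6% of all tested genes. The siRNAs share the control libraries, so agreement between them is in part built in. The shares of all tested genes were not matched for level, which was higher in most members, as described below.

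The change was spread over the list rather than carried by a few genes. The median log2 fold change of the members was -0.33 with si025, with an interquartile range from -0.48 to -0.15, and -0.23 with si033, from -0.34 to -0.13. Over all tested genes these medians were 0.018 and 0.0033. Of the 60 members, 56 lay below 0 with si025 and 52 with si033, and none reached a 2-fold fall. The 60 genes together took 0.998% ± 0.0018 (SD, n = 3) of all counts in control cells, 0.763% ± 0.0129 with si025 and 0.861% ± 0.0137 with si033. All 3 control libraries lay above all 3 si033 libraries, which in turn lay above all 3 si025 libraries. With the factors of TMM left out, the medians were -0.28 and -0.18 where the medians of all tested genes were 0.069 and 0.057, and the called genes split 39.1% lower with si025 and 40.7% lower with si033, against 46.6% and 50.8% under TMM.

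**Figure D1:**
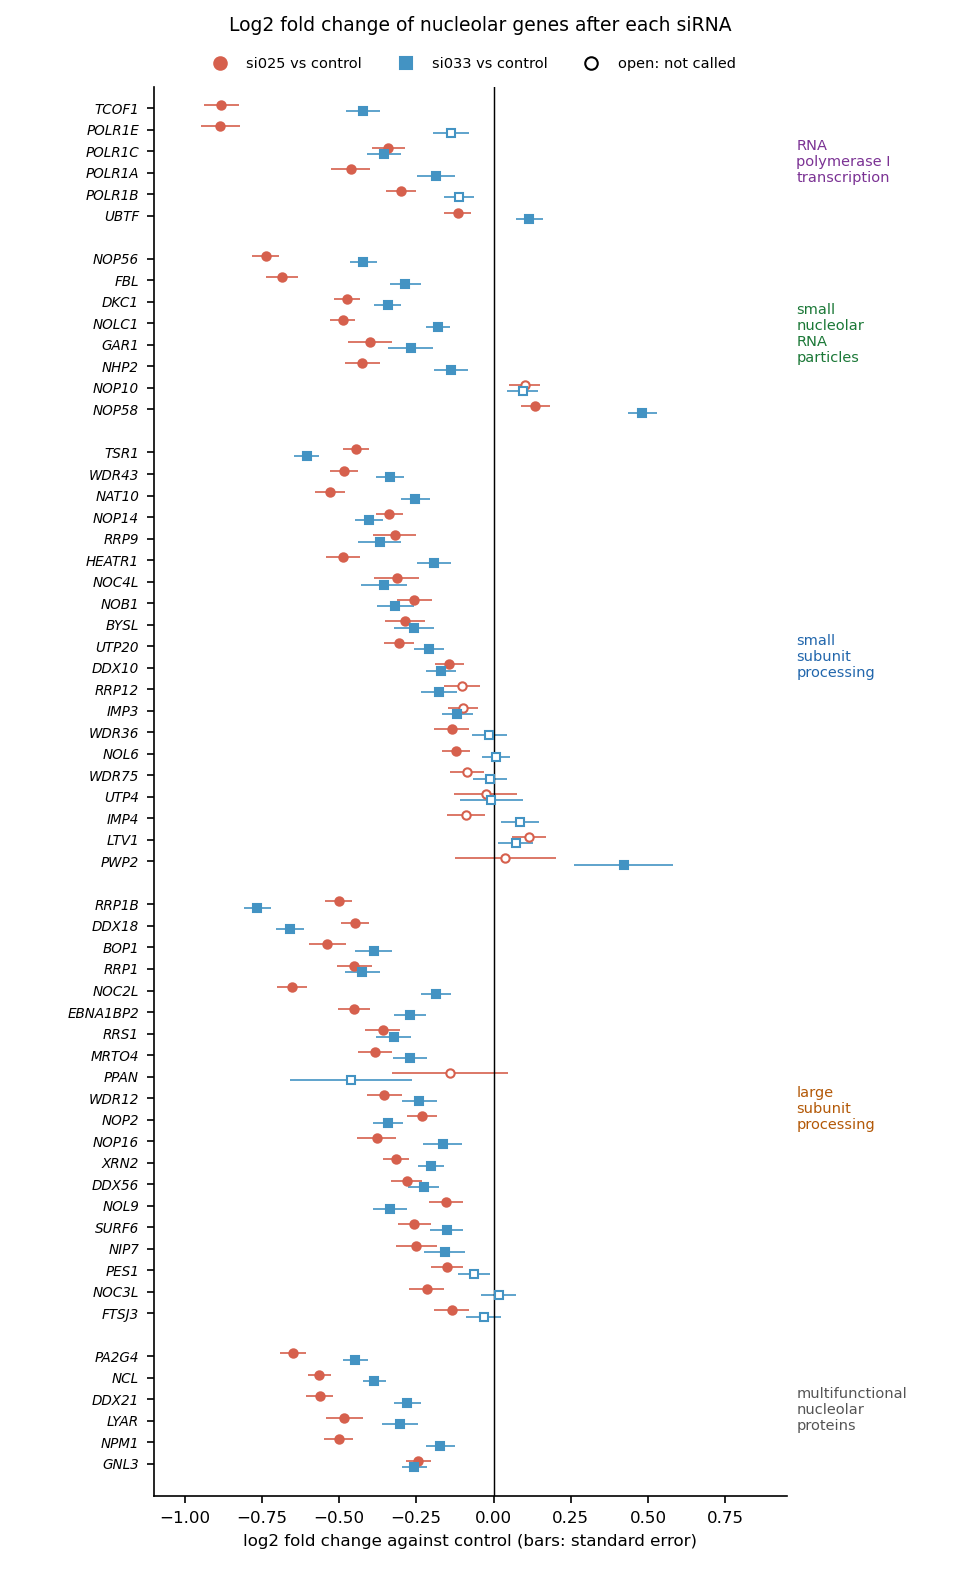
Log2 fold change against control of each of the 60 members (horizontal axis, bars are SE), for si025 (circles) and si033 (squares), grouped by role; open symbols were not called. Most points lie left of 0, with *NOP58* and *PWP2* standing to the right with si033.

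**Figure D2:**
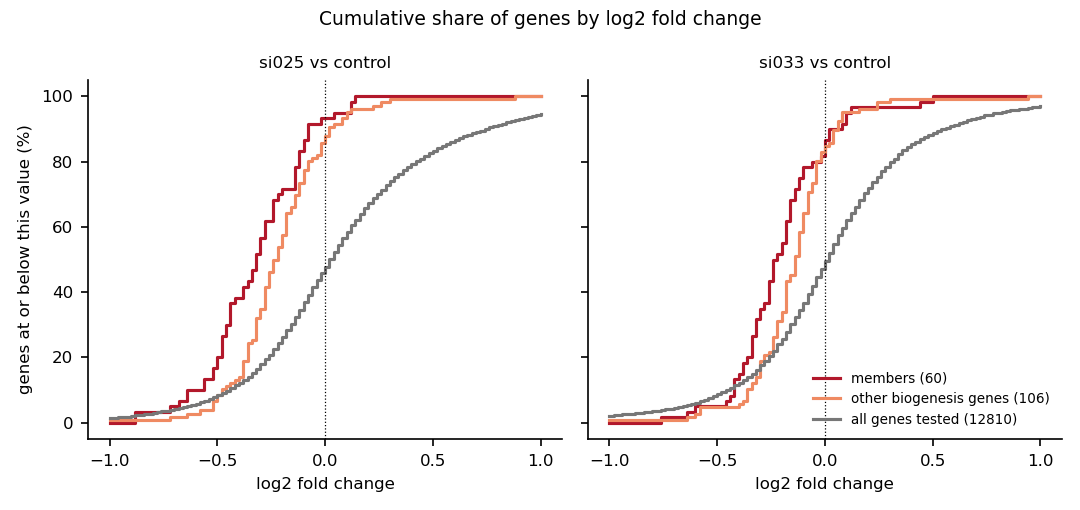
Percentage of genes (vertical axis) at or below each log2 fold change (horizontal axis) for the 60 members, the 106 other biogenesis genes tested and all 12810 genes tested, with si025 on the left and si033 on the right. The curve of the members lies left of that of all genes in the middle of its range, with medians of -0.33 and -0.23 against 0.018 and 0.0033.

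The first step of the pathway is transcription by RNA polymerase I, for which 6 members were listed. All 6 were lower with si025, with a median of -0.40, while with si033 3 were lower, 1 was higher and 2 were not called, with a median of -0.16. *TCOF1* on chromosome 5 encodes treacle, a cofactor that ties rRNA transcription to rRNA methylation and whose loss of function causes Treacher Collins syndrome. It stood at 139, 147 and 138 CPM in the control libraries, 77.2, 81.3 and 71.7 CPM with si025 and 109, 96.4 and 109.5 CPM with si033. The groups did not overlap, and the log2 fold change was -0.88 (SE 0.057, adjusted *p* = 5.00e-12) with si025 and -0.42 (SE 0.056, adjusted *p* = 9.12e-07) with si033. *POLR1E* on chromosome 9 encodes a subunit of the polymerase that helps it start. Its level was 51.3, 48.8 and 48.2 CPM in the control libraries, 28.9, 27.0 and 24.8 CPM with si025 and 46.1, 43.9 and 44.5 CPM with si033. All si025 libraries were far below the other libraries, with a change of -0.88 (SE 0.062, adjusted *p* = 2.22e-11). With si033 the libraries also lay below all control libraries, but the change of -0.14 (SE 0.059, adjusted *p* = 0.0501) missed the threshold, and it passed when any si025 library was left out of the fit (adjusted *p* = 0.0432 to 0.0467).

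*UBTF* was the only member called in opposite directions. Its level came to 176, 179 and 177 CPM in the control libraries, 162, 166 and 163 CPM with si025 and 202, 186 and 189.9 CPM with si033. The groups did not overlap and the shifts were small, -0.12 (SE 0.044, adjusted *p* = 0.0244) with si025 and 0.12 (SE 0.044, adjusted *p* = 0.0285) with si033. Neither call of *UBTF* was firm: without TMM factors the si025 change was -0.066 (adjusted *p* = 0.196), and with exon length and GC offsets the si033 change was 0.061 (adjusted *p* = 0.113). The si025 call was lost without si025 replicate 1 or 3 or without control replicate 2 (adjusted *p* = 0.0569, 0.0699 and 0.0630), and the si033 call without si033 replicate 1 or control replicate 1 or 3 (adjusted *p* = 0.105, 0.0577 and 0.0626). The core subunits followed the general direction. *POLR1A* and *POLR1B*, the largest subunits, changed by -0.46 and -0.30 with si025 and by -0.19 and -0.11 with si033, the last of these not called. *POLR1C*, a subunit shared with RNA polymerase III, changed by -0.34 and -0.36, both called. The si033 call of *POLR1A* was lost without control replicate 2 (adjusted *p* = 0.0561) or under library totals only (adjusted *p* = 0.0828). For *POLR1B* the si033 change had an adjusted *p* of 0.0589. It passed the threshold without si025 replicate 2 or control replicate 1 (adjusted *p* = 0.0450 and 0.04745). The same held under DESeq2 size factors and with exon length and GC offsets (adjusted *p* = 0.0489 and 0.0244).

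Small nucleolar RNA particles were represented by 8 members, of which 6 were lower with both siRNAs, 1 was higher with both and 1 was not called. The medians were -0.45 with si025 and -0.22 with si033. In the box C/D particle, which guides methylation of rRNA, the core proteins parted. *NOP56*, on chromosome 20, read 507, 529 and 532 CPM in the control libraries, 304, 328 and 309 CPM with si025 and 409.6, 382 and 381 CPM with si033. This was a fall of 40.0% with si025 and of 25.3% with si033, at log2 fold changes of -0.74 (SE 0.044, adjusted *p* = 1.37e-12) and -0.42 (SE 0.043, adjusted *p* = 2.33e-08). Its partner in the same core, *NOP58* on chromosome 2, went the other way. *NOP58* showed 103, 96.8 and 97.3 CPM in the control libraries, 107, 112 and 107 CPM with si025 and 142, 135 and 137 CPM with si033. Its rise with si033 was 39.6%, at 0.48 (SE 0.047, adjusted *p* = 8.82e-09), and no si033 library came near the control libraries. With si025 the rise was 0.13 (SE 0.047, adjusted *p* = 0.0168), a call that was lost without si025 replicate 2 or control replicate 2 or 3 (adjusted *p* = 0.0565, 0.0753 and 0.0848). *FBL*, the methyltransferase of the particle, changed by -0.68 (SE 0.051, adjusted *p* = 7.52e-11) with si025 and -0.29 (SE 0.051, adjusted *p* = 4.95e-05) with si033.

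The box H/ACA particle, which turns uridine into pseudouridine, has 4 core proteins in the list. *DKC1*, the pseudouridine synthase mutated in dyskeratosis congenita, changed by -0.48 with si025 and -0.34 with si033. *GAR1* changed by -0.40 and -0.27 and *NHP2* by -0.42 and -0.14, all called lower. *NOP10*, the smallest of the 4, was not called, with values of 0.10 and 0.095, but this turned on the scaling. With si025 it was called higher under upper quartile factors (0.12, adjusted *p* = 0.0386), library totals only (0.15, adjusted *p* = 0.0110) and exon length and GC offsets (0.23, adjusted *p* = 3.93e-05), and with si033 under the first and the second of these (0.12 and 0.15, adjusted *p* = 0.0430 and 0.0155). *NOLC1*, which escorts both kinds of particle, was lower with both, at -0.49 and -0.18. The si033 call of *NHP2* was lost without si033 replicate 2 or 3 or any 1 control library (adjusted *p* = 0.0832 to 0.181), and that of *GAR1* without si033 replicate 3 (adjusted *p* = 0.0513).

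**Figure D3:**
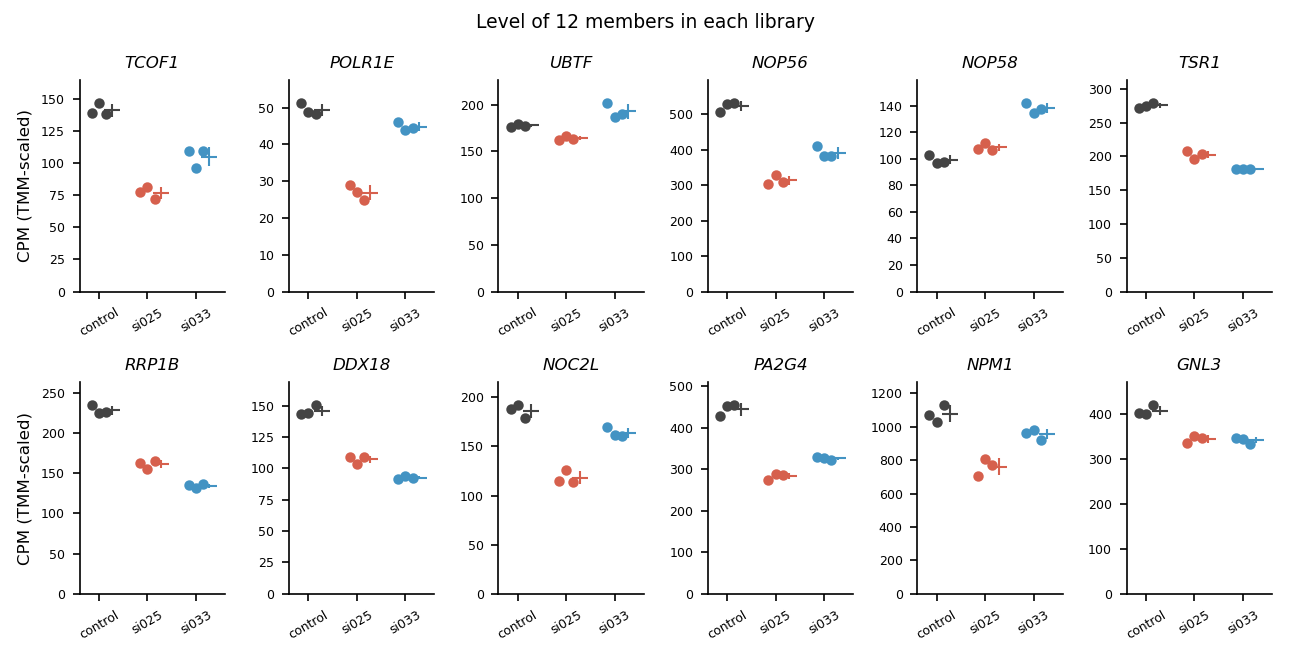
TMM-scaled CPM (vertical axes, from 0) of 12 members in each of the 9 libraries; points are libraries, and the bar beside them is the mean with its SD (n = 3). *NOP56* and *NOP58*, partners in the same particle, moved in opposite directions with si033, and *RRP1B*, *DDX18* and *TSR1* were lower with si033 than with si025.

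Small subunit processing was the group with the smallest median shift with si025. Of its 20 members 13 were lower with si025 and none higher, and 13 were lower and 1 higher with si033, with medians of -0.20 and -0.18. *TSR1*, a GTPase-like factor that keeps the immature subunit from binding translation factors, had the lowest mean of the siRNA changes in this group, although *NAT10*, *HEATR1* and *WDR43* were lower with si025. In the libraries it was at 272, 275 and 279 CPM in the control libraries, 208, 197 and 203 CPM with si025 and 181, 182 and 181 CPM with si033. The si033 libraries agreed to within 1 CPM, and all lay below the si025 libraries, which lay below control. The changes were -0.45 (SE 0.041, adjusted *p* = 2.27e-09) and -0.61 (SE 0.041, adjusted *p* = 2.11e-11). *NAT10*, which acetylates the small subunit rRNA, changed by -0.53 with si025 and -0.25 with si033. *HEATR1* and *WDR43*, processome proteins needed for rRNA transcription, changed by -0.49 and -0.48 with si025 and by -0.19 and -0.34 with si033. *NOP14* and its binding partner *NOC4L* changed by -0.34 and -0.31 with si025 and by -0.40 and -0.35 with si033. All of these were called.

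Late and structural factors of the small subunit were lower too, or not called, except *PWP2*, which is given further on. *RRP9*, a protein of the U3 particle, changed by -0.32 and -0.37, *BYSL* by -0.29 and -0.26, and *NOB1*, the endonuclease that makes the last cut, by -0.26 and -0.32, each with si025 first. The large scaffold protein *UTP20* changed by -0.31 and -0.21 and the helicase *DDX10* by -0.14 and -0.17, where the si025 call of *DDX10* was lost under library totals only (-0.092, adjusted *p* = 0.0884). Among WD-repeat proteins of the processome, *WDR75* and *UTP4* were called with neither siRNA, *WDR36* with si025 alone, and *WDR43*, given above, lower with both. *UTP4* had 12.0, 14.1 and 12.6 CPM in the control libraries, 12.4, 10.9 and 14.5 CPM with si025 and 13.6, 12.9 and 12.4 CPM with si033, with overlapping groups and changes of -0.026 and -0.0071. *WDR75* was at -0.086 and -0.012, with si025 first, *WDR36* was at -0.14 and -0.013, and *NOL6*, lower with si025 alone, at -0.12 and 0.0080. The si025 call of *WDR36* was lost without any 1 si025 library, without control replicate 2 or 3 or without si033 replicate 3 (adjusted *p* = 0.0504 to 0.202), and that of *NOL6* without si025 replicate 1 or 3 or control replicate 2 (adjusted *p* = 0.0518 to 0.133).

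*IMP3* and *IMP4*, partners in a complex that helps U3 pair with the precursor, differed little from control. *IMP3* was at -0.098 with si025 and -0.12 with si033, only the latter called, and leaving out any 1 library but si025 replicate 2 ended that call (adjusted *p* = 0.0515 to 0.136). *IMP4* was at -0.089 and 0.086 and *LTV1*, which escorts the subunit to the cytoplasm, at 0.12 and 0.072, none called, though *LTV1* was called higher with si025 under upper quartile factors, library totals only and exon length and GC offsets (adjusted *p* = 0.0381, 0.0119 and 0.00107). *RRP12*, an export factor, was called lower with si033, at -0.18 (SE 0.058, adjusted *p* = 0.0132), and not with si025, at -0.10 (SE 0.057, adjusted *p* = 0.126). The si033 call was lost without control replicate 2 (adjusted *p* = 0.0902), and the si025 change passed the threshold without control replicate 3 (-0.16, adjusted *p* = 0.0451) or with exon length and GC offsets (-0.22, adjusted *p* = 3.55e-04).

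*PWP2*, another WD-repeat protein of the processome, was the member with the highest mean change of this group and the lowest level per length of all. It reached only 4.45, 4.78 and 3.32 CPM in the control libraries, 4.67, 4.12 and 3.85 CPM with si025 and 6.26, 5.18 and 5.07 CPM with si033. The si033 libraries were all above the others, with a change of 0.42 (SE 0.16, adjusted *p* = 0.0297), whereas the si025 and control libraries overlapped, at 0.038 (SE 0.16, adjusted *p* = 0.856). The si033 call was lost without si033 replicate 1 (log2 fold change 0.34, adjusted *p* = 0.107) or control replicate 3 (0.24, adjusted *p* = 0.273). On chromosome 21, 88.3% of the 31-base words of *PWP2* also occur in the near-identical gene *LOC102724159*, and read pairs that map to both were not counted, so its value is uncertain. *LOC102724159* itself stood at 31.3 ± 2.0 CPM in control, 25.2 ± 4.02 with si025 and 24.8 ± 1.76 with si033 (SD, n = 3). Its changes were -0.32 (SE 0.088, adjusted *p* = 0.00326) and -0.33 (SE 0.090, adjusted *p* = 0.00337), opposite to the call of *PWP2*.

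Large subunit processing held 20 members, of which 19 were lower with si025 and 16 with si033, none higher, with medians of -0.33 and -0.26. *RRP1B* on chromosome 21, a nucleolar scaffold that binds early large subunit precursors, had the largest fall of all members with si033. It measured 235, 224 and 226 CPM in the control libraries, 162, 156 and 166 CPM with si025 and 135, 131 and 136 CPM with si033. The groups were fully apart, with changes of -0.50 (SE 0.043, adjusted *p* = 8.51e-10) and -0.76 (SE 0.044, adjusted *p* = 1.09e-12). Its paralog *RRP1* changed by -0.45 and -0.42, and *DDX18*, a helicase of the same early precursors, was close to *RRP1B*. *DDX18* came to 143, 144 and 151 CPM in the control libraries, 109, 104 and 109 CPM with si025 and 91.6, 94.0 and 92.1 CPM with si033. Its changes were -0.45 (SE 0.045, adjusted *p* = 1.03e-08) and -0.66 (SE 0.046, adjusted *p* = 3.17e-11).

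*NOC2L*, part of a complex that carries the large subunit precursor out of the nucleolus, gave the opposite order of the siRNAs. It amounted to 188, 192 and 179 CPM in the control libraries, 115, 126 and 114 CPM with si025 and 169.5, 162 and 160.4 CPM with si033. The si025 libraries lay well below the si033 libraries, with changes of -0.65 (SE 0.049, adjusted *p* = 7.91e-11) and -0.19 (SE 0.048, adjusted *p* = 0.00236). Its partner *NOC3L* was lower with si025 alone, at -0.22 (SE 0.057, adjusted *p* = 0.00220) against 0.017 with si033. *NOL9*, a kinase needed to process the large subunit rRNA, was lower with both, with 68.6, 70.8 and 66.6 CPM in the control libraries, 63.6, 62.9 and 58.6 CPM with si025 and 55.5, 51.2 and 55.7 CPM with si033. The changes of *NOL9* were -0.15 (SE 0.054, adjusted *p* = 0.0161) and -0.34 (SE 0.055, adjusted *p* = 1.73e-05), and its si025 call was lost without si025 replicate 3 or control replicate 2 (adjusted *p* = 0.111 and 0.0664). The PeBoW complex, which acts in large subunit maturation, showed unequal values in its members: *BOP1* changed by -0.54 and -0.39, *WDR12* by -0.35 and -0.24, and *PES1* by -0.15 and -0.064, the last value not called. The si025 call of *PES1* was lost without si025 replicate 3 or control replicate 3 (adjusted *p* = 0.111 and 0.0650).

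The remaining large subunit factors lay in a narrow band. *EBNA1BP2*, *MRTO4*, *RRS1* and *NOP16* changed by -0.45, -0.38, -0.36 and -0.38 with si025 and by -0.27, -0.27, -0.32 and -0.17 with si033. *NOP2*, an rRNA methyltransferase and old proliferation marker, changed by -0.23 and -0.34, the exonuclease *XRN2* by -0.32 and -0.20, and the helicase *DDX56* by -0.28 and -0.23. *SURF6* was at -0.26 and -0.15 and *NIP7* at -0.25 and -0.16, all called. *NIP7* rested on thin ground with si033: its adjusted *p* of 0.0454 rose to between 0.0513 and 0.455 when any 1 library other than control replicate 2 or si025 replicate 2 was left out, and without control replicate 3 the change itself shrank to -0.067. The si033 call of *NOP16* was lost without si033 replicate 2 or 3 or control replicate 1 or 2 (adjusted *p* = 0.0921 to 0.177), and that of *SURF6* without si033 replicate 2 or control replicate 1 (adjusted *p* = 0.0890 and 0.137).

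*FTSJ3*, an RNA methyltransferase, had the highest mean of the siRNA changes in the large subunit group. It was counted at 62.0, 57.0 and 59.4 CPM in the control libraries, 52.1, 56.7 and 53.1 CPM with si025 and 61.7, 55.8 and 57.1 CPM with si033. The si025 and control libraries almost touched, and the change of -0.14 (SE 0.056, adjusted *p* = 0.0398) was lost without si025 replicate 1 or 3 or control replicate 1 or 3 (adjusted *p* = 0.0806 to 0.140). With si033 the libraries overlapped control, at -0.033. *PPAN*, a factor of the large subunit, shares 87.6% of its exon length with the readthrough gene *PPAN-P2RY11* on the same strand, so read pairs in the shared part were not counted for either. It was left with 4.45, 4.64 and 3.32 CPM in the control libraries, 3.27, 3.97 and 3.58 CPM with si025 and 4.12, 2.55 and 2.45 CPM with si033. The changes were -0.14 (SE 0.19, adjusted *p* = 0.528) and -0.46 (SE 0.20, adjusted *p* = 0.0510), neither called, and their SE exceeded the median SE of the members, 0.054 in each comparison. The si033 change passed the threshold without si025 replicate 2, si033 replicate 1 or control replicate 3 (adjusted *p* = 0.0492, 0.00600 and 0.0199).

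The multifunctional nucleolar proteins were lower throughout, all 6 with both siRNAs, with medians of -0.53 and -0.29. *PA2G4* on chromosome 12, which binds pre-ribosomes and responds to ErbB3 signalling, had the lowest mean of the siRNA changes. It had 427, 451 and 455 CPM in the control libraries, 275, 289 and 286 CPM with si025 and 330.4, 326 and 322 CPM with si033. No group overlapped another, and the changes were -0.65 (SE 0.041, adjusted *p* = 4.49e-12) and -0.45 (SE 0.041, adjusted *p* = 3.65e-09). *PA2G4* has 6 named pseudogenes in GENCODE version 44, and reads that also match a copy were not counted. *NCL* encodes nucleolin, among the most abundant nucleolar proteins, with 1469.9, 1443 and 1514 CPM in the control libraries, 968, 1024 and 1002 CPM with si025 and 1144, 1128 and 1117 CPM with si033. The changes of *NCL* were -0.56 (SE 0.038, adjusted *p* = 1.10e-11) and -0.39 (SE 0.038, adjusted *p* = 9.55e-09), and no group overlapped another.

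*NPM1*, or nucleophosmin, the protein that forms the granular outer layer of the nucleolus, was at 1072, 1029 and 1130.3 CPM in the control libraries, 705, 806 and 771 CPM with si025 and 965, 982 and 922 CPM with si033. All siRNA libraries were below all control libraries, with -0.50 (SE 0.047, adjusted *p* = 3.68e-09) and -0.17 (SE 0.047, adjusted *p* = 0.00354). It has 49 named pseudogenes, the most of any member. *GNL3*, or nucleostemin, a GTPase of stem and cancer cells, had the smallest mean change of this group. It gave 402, 399 and 419 CPM in the control libraries, 335, 351 and 346 CPM with si025 and 346, 344 and 333 CPM with si033. The changes were -0.24 (SE 0.041, adjusted *p* = 1.77e-05) and -0.26 (SE 0.041, adjusted *p* = 1.20e-05). *DDX21*, a helicase that links RNA polymerase I and II transcription, changed by -0.56 and -0.28, and the nucleolar protein gene *LYAR* by -0.48 and -0.30.

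The effects of the siRNAs were then compared directly. Of the 60 members, 28 were called lower with si025 than with si033 and 4 higher, where 29.7% of all tested genes were lower and 31.2% higher. The median difference was -0.11 on the log2 scale, against -0.0015 over all tested genes. Of the 42 members lower with both siRNAs, 20 were lower still with si025, 4 were lower still with si033, and 18 were not called.

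The widest difference was in *POLR1E*, at -0.75 (SE 0.062, adjusted *p* = 4.37e-10), followed by *NOC2L* at -0.47 (SE 0.049, adjusted *p* = 2.40e-08) and *TCOF1* at -0.46 (SE 0.057, adjusted *p* = 3.19e-07). In the other direction stood *RRP1B* at 0.26 (SE 0.044, adjusted *p* = 2.15e-05), *DDX18* at 0.21 (SE 0.046, adjusted *p* = 4.71e-04), *NOL9* at 0.18 (SE 0.055, adjusted *p* = 0.00629) and *TSR1* at 0.16 (SE 0.041, adjusted *p* = 0.00200). By role, 5 of 6 RNA polymerase I genes, 6 of 8 particle genes and 5 of 6 multifunctional genes were lower with si025 than with si033, against 6 of 20 small subunit and 6 of 20 large subunit genes. The 4 members higher with si025 were all subunit processing factors. Roles were not tested against each other.

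**Figure D4:**
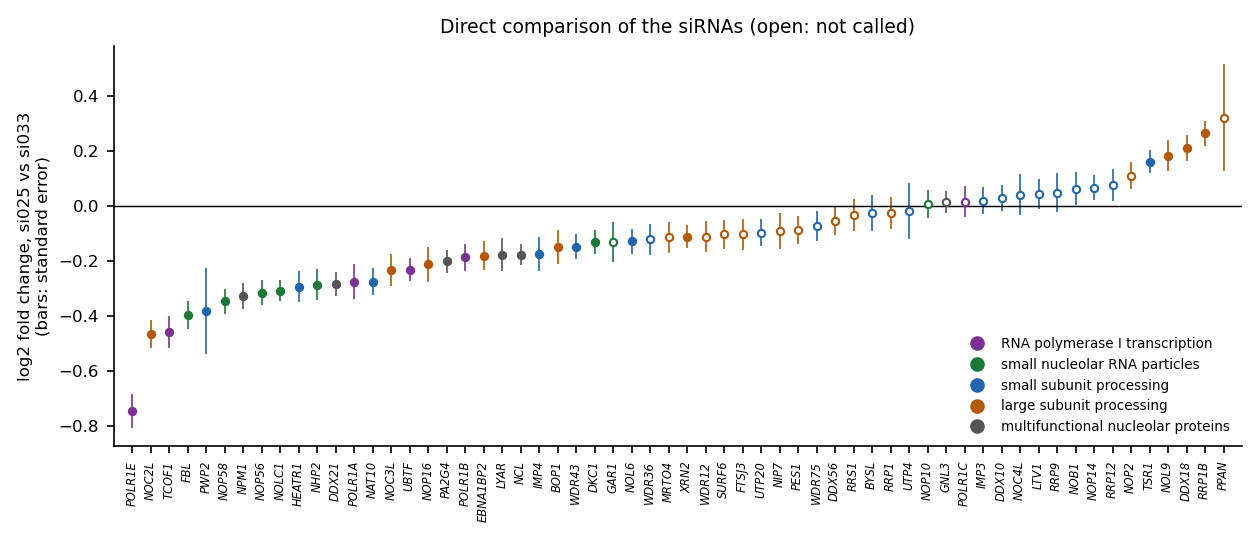
Log2 fold change of si025 against si033 (vertical axis, bars are SE) for the 60 members in ascending order (horizontal axis), coloured by role; open symbols were not called. The row starts at *POLR1E* (-0.75), and *RRP1B* (0.26) is the highest of the called members.

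*MYC*, which the study asks about, fell with both siRNAs as well. Its level was 444 ± 11.5 CPM in control, 258 ± 11.6 with si025 and 310.0 ± 9.13 with si033 (SD, n = 3). The changes were -0.78 (SE 0.044, adjusted *p* = 4.68e-13) and -0.52 (SE 0.044, adjusted *p* = 7.16e-10), and si025 against si033 gave -0.26 (SE 0.044, adjusted *p* = 1.74e-05). The group means of *MYC* stood in the order control, si033, si025, as did the summed share of the 60 members, and no relation between them was tested.

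In control cells the members were well expressed for their length. Their median level was 30.6 FPKM, the TMM-scaled CPM divided by the exon length in kilobases, against 7.28 FPKM over all tested genes, and 43 of 60 were at or above the 75th percentile of tested genes. The highest levels per length were *NCL* at 543 ± 13.2 FPKM, *NPM1* at 381 ± 18.0 FPKM and *NOP56* at 238 ± 6.23 FPKM (SD, n = 3). The lowest were *PWP2* at 1.16 ± 0.212 FPKM, *PPAN* at 2.40 ± 0.412 FPKM and *UTP4* at 5.37 ± 0.450 FPKM, of which the first and the second lose read pairs to a near-identical or overlapping gene. Between *NCL*, *NPM1* and *NOP56* the levels were separated by far more than their SD.

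Members with a higher level in control tended to lie lower after the siRNAs. Spearman's rho between the control FPKM and the log2 fold change, over the 60 members, was -0.43 with si025 and -0.25 with si033, and over all 12810 tested genes -0.33 and -0.24. These are descriptions over genes, which are not independent, and the level and the fold change share the control libraries. With exon length rho was -0.040 and 0.049 and with exon GC content -0.053 and -0.19 over the members.

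**Figure D5:**
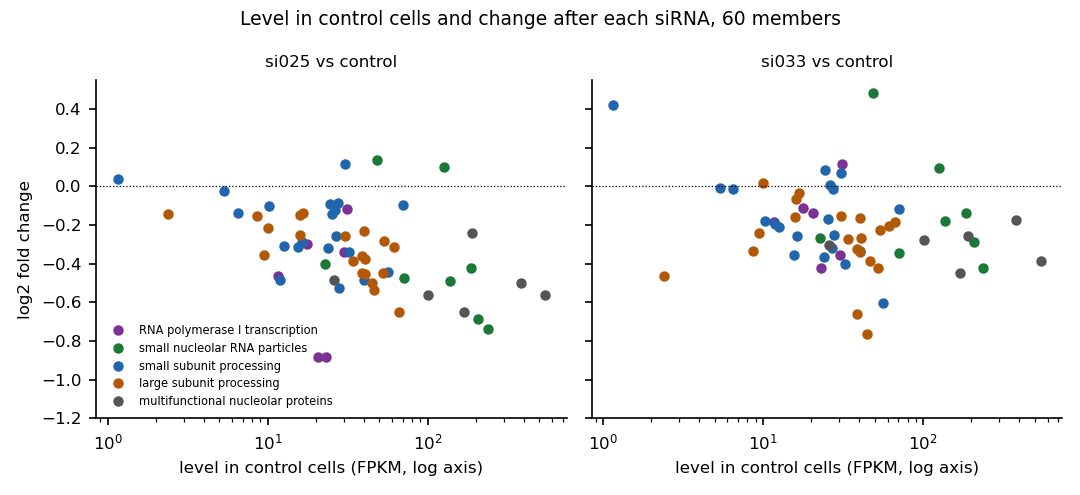
Log2 fold change (vertical axis) against the level in control cells (horizontal axis, FPKM, log axis) for the 60 members, coloured by role, with si025 on the left and si033 on the right. Points slope downwards from *PWP2* at 1.16 FPKM to *NCL* at 543 FPKM, with rho of -0.43 and -0.25.

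Other genes of ribosome biogenesis were drawn from a list of 111 names by role, made with earlier results of these data known. All 111 are in the files and 106 were tested. With si025 75 were lower and 4 higher, with a median of -0.25, and with si033 57 were lower and 4 higher, with a median of -0.15. In 48 the call was lower with both siRNAs and in 2 higher with both. Of these 106 genes, 70.8% were thus lower with si025, against 28.8% of all tested genes, 53.8% with si033, against 27.8%, and 48 with both, where the share of all tested genes was 14.6%. Between the siRNAs, 42 (39.6%) were lower and 14 (13.2%) higher with si025 than with si033, against 29.7% and 31.2% of all tested genes. Examples named after their values were seen are the helicase-like ATPases *RUVBL1* and *RUVBL2*, which assemble nucleolar particles, at -0.46 and -0.59 with si025 and at -0.60 and -0.38 with si033. *BRIX1* and *RPF2*, large subunit factors, were at -0.52 and -0.64 with si025 and at -0.38 and -0.37 with si033. *POLR1D*, a subunit of RNA polymerases I and III, was at -0.41 (adjusted *p* = 2.39e-07) and -0.11 (adjusted *p* = 0.0564). *RRN3*, the initiation factor of RNA polymerase I, was the lowest of the list but scarce, at 2.1 CPM in control, with -1.34 (SE 0.48, adjusted *p* = 0.0188) and -1.78 (SE 0.52, adjusted *p* = 0.00549). *NMD3*, the export adaptor of the large subunit, rose with both siRNAs, by 0.87 and 0.93, and *GLTSCR2*, now named *NOP53*, by 0.12 and 0.23. *RRP15* was called in opposite directions, at 0.25 with si025 and -0.18 with si033.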

How the data were processed

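Total RNA libraries of VCaP cells were sequenced by the authors, 3 each after control siRNA, si025 and si033. According to the submitters' processing notes and the file headers, the authors aligned reads to hg38 with HISAT2 2.1.0 and made the deposited counts with featureCounts 1.5.2, over exons of a RefSeq annotation, on the sense strand, as raw counts of read pairs per gene. Other deposited columns give the exon length, used for FPKM. Samples were grouped by title.

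All 9 libraries entered 1 edgeR 4.0.16 quasi-likelihood fit in R 4.3.3 with 3 group means, TMM and the default filter, and *p* values were adjusted over 12810 genes. Alternatives used limma 3.58.1, DESeq2 1.42.0, other scalings and filters and left out each library. The scripts were tested on simulated data. Totals of 11649811 to 28492259 counts and a biological coefficient of variation of 4.13% set the precision. Replicates differed beyond counting noise, with chi-square per degree of freedom of at least 1.69, so none were merged. Members and lists were chosen with earlier results of these data known. Values per library are given for the lowest and highest member of each role, the member called in opposite directions, the extremes of si025 against si033, and the highest and lowest levels per length. Promoter words were searched on both strands.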

Additional observations from a re-analysis of the deposited data

Results flagged for a closer look

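In 32 members the effect of si025 differed from that of si033 in the direct contrast of the edgeR quasi-likelihood test (adjusted *p* under 0.05), and these are listed here with the log2 fold change of si025 against si033. They are 28 members lower (46.7%) and 4 higher (6.67%), where 29.7% and 31.2% of all tested genes were called, so members that differ between the siRNAs are no more frequent than such genes in general. In the RNA polymerase I group the values were -0.75 for *POLR1E*, -0.46 for *TCOF1*, -0.28 for *POLR1A*, -0.23 for *UBTF* and -0.19 for *POLR1B*. Among particle proteins they were -0.40 for *FBL*, -0.35 for *NOP58*, -0.32 for *NOP56*, -0.31 for *NOLC1*, -0.29 for *NHP2* and -0.13 for *DKC1*. *NOP58* had been called higher than control with both siRNAs, so its negative value is a smaller rise with si025. Small subunit factors lower with si025 were *PWP2* at -0.38, *HEATR1* at -0.29, *NAT10* at -0.28, *IMP4* at -0.17, *WDR43* at -0.15 and *NOL6* at -0.13, and *TSR1* was higher at 0.16. Large subunit factors lower with si025 were *NOC2L* at -0.47, *NOC3L* at -0.23, *NOP16* at -0.21, *EBNA1BP2* at -0.18, *BOP1* at -0.15 and *XRN2* at -0.11, and *RRP1B* at 0.26, *DDX18* at 0.21 and *NOL9* at 0.18 were higher. The multifunctional proteins gave -0.33 for *NPM1*, -0.28 for *DDX21*, -0.20 for *PA2G4*, -0.18 for *LYAR* and -0.18 for *NCL*.

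Leaving out 1 library ended 7 of these 32 calls. *BOP1* lost its call without si025 replicate 1 or 3 or si033 replicate 1 (adjusted *p* = 0.114, 0.0683 and 0.194), *IMP4* without the same libraries (0.0919, 0.0511 and 0.0761), and *PWP2* without si025 replicate 2 or 3 or si033 replicate 1 (0.0762, 0.141 and 0.128). *XRN2* lost its call without si025 replicate 2 or si033 replicate 2 or 3 (adjusted *p* = 0.0759, 0.0995 and 0.0596), *LYAR* and *NOL6* without si025 replicate 3 (0.0615 and 0.0647), and *WDR43* without si033 replicate 3 (0.0537).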

How the results depend on the processing

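Over 20 alternatives, the members called lower ranged from 43 to 51 with si025, from 37 to 48 with si033 and from 35 to 47 with both, and every median of the members stayed below 0. Of single member values, 3428 stayed on their side of the threshold, 113 lost a call, 56 gained a call and none changed sign while called. Counts of members called higher were too small to be stable: with si025 there were 3 under upper quartile factors, library totals only or exon length and GC offsets, and 0 to 1 when a library was left out, and with si033 there were 1 to 3 when a library was left out. Under library totals only, the medians were -0.28 with si025 and -0.18 with si033, where the medians of all tested genes were 0.069 and 0.057, and 8 other biogenesis genes were called higher with si033, against 4. Within 100 bases around the start, 8 members' promoters held CCGGAAG and 24 CANNTG, against 19 and 39 in the whole window. There, 15.7% and 47.1% of members' promoters compare with 11.2% and 26.1% of those of tested genes. Of all promoters, 6.01% and 33.7% held these words there. Library totals only ended 14 member calls. Scarce members such as *PPAN* and *PWP2*, at under 7 CPM, had the widest errors.

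Replicate numbers in the labels did not pair the libraries: deviations of same-numbered libraries correlated between -0.0214 and 0.0729. With a replicate block, 50 members were lower and 1 higher with si025, 46 were lower and 3 higher with si033, 43 were lower with both, and si025 against si033 gave 28 lower and 4 higher, while 8000, 7094 and 7843 of all genes were called in these contrasts. The block changed 2 member calls, bringing *POLR1E* (-0.14, adjusted *p* = 0.0391) and *PPAN* (-0.45, adjusted *p* = 0.0423) past the threshold with si033.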
